A study of Ovis aries with 40 samples.

Results

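Proximal and distal lung of fetal sheep were compared at 80 days of gestation, in WT and CF animals. The comparison used the libraries labelled day 80, which were 8 of the 40 libraries in the series. Each region had 4 libraries, 2 from WT and 2 from CF animals, and the sample name in the labels puts both pieces of lung in 1 animal, so that 4 animals gave 4 pairs. The series as a whole followed both regions from 65 days to term in both genotypes by bulk RNA-seq of oligo dT primed libraries. The WT sheep were American Romney animals bred naturally. The CF sheep lack functional *CFTR* and were made by somatic cell nuclear transfer from male fetal fibroblasts of that breed in which an exon of *CFTR* had been targeted, so the CF animals are clones of 1 modified line. WT animals carried no edit and were not made by nuclear transfer, so genotype and the way the animals were made cannot be told apart. Ewes of both groups were synchronised before mating or embryo transfer with the prostaglandin analogue cloprostenol. The recipients of CF embryos also had vaginal sponges and a larger dose, so the treatment of the ewes cannot be told apart from genotype either.

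The conducting airways of the proximal lung are lined by multiciliated, secretory and basal cells and are wrapped by smooth muscle and cartilage, whereas the distal lung grows by branching of epithelial tips that later form alveoli. SOX2 marks the epithelium of the airway stalks and SOX9 that of the growing tips. FOXJ1 switches on the genes of motile cilia, TP63 and KRT5 mark basal cells, and secretoglobins are products of secretory cells. Mesenchymal signals such as FGF10 guide branching. A piece of lung holds all of these cell types, and in bulk RNA a lower number of cells of a type and less RNA per cell cannot be told apart.

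Library depth ran from 25301277 to 43700012 counted reads in WT and from 85773994 to 100338555 in CF. *CFTR*, the chloride channel gene that was targeted, was at 46.5 and 46.5 CPM (counts scaled to a common library total) in WT proximal and 44.9 and 46.8 in WT distal lung. In CF it was at 17.7 and 32.8 CPM in proximal and 31.4 and 37.1 in distal lung, so its transcript was present in every CF library and below every WT library. The labels call the tissue epithelial, and the epithelial gene *EPCAM* was at 125 to 244 CPM in the 8 libraries. The endothelial gene *PECAM1* was at 230 to 285 CPM and the fibroblast collagen gene *COL1A1* at 1667 to 8632 CPM, so the pieces held mesenchyme and vessels as well.

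A pair of CF proximal libraries stood apart. In CF animal 1 the difference between regions followed gene length, with a Spearman correlation of -0.57 across 14047 expressed genes, those whose log2 CPM averaged at least 1, against 0.21, 0.22 and 0.10 in WT animals 1 and 2 and CF animal 2. Genes are not independent replicates, and the median log2 difference ran in that animal from 0.59 in the first to -0.45 in the last of 4 equal bins of gene length, shortest first. Its proximal library had 9.40% of reads in ribosomal protein genes, as against 5.14% to 6.29% in the other CF libraries and 9.65% to 11.2% in WT. In CF animal 2 the proximal library held heart muscle genes at a summed 1032 CPM, compared with 23.3 to 82.1 CPM in the other 7 libraries. The cardiac troponin gene *TNNT2* was at 39.5 CPM there and at 0 to 0.199 CPM in the others. That library also held the 7 fibrillar collagen genes at a summed 27098 CPM, compared with 8588 to 12924. The part of the heart muscle and collagen features in the results below was not tested. With a trend on gene length removed from each library, the median log2 difference in CF animal 1 was 1.63 for motile cilia genes (1.5 before) and 0.50 for genes of mesothelium, the lining of the lung's surface (0.88 before). It was 1.79 for basal cell genes (2.01 before) and 0.88 for secretory and gland genes (1.08 before). In what follows, values without each CF animal are given beside the totals of genes called and the counts of most lists. Without a CF animal, the one left is assumed to vary as the WT pair does. More genes then pass in CF and in CF minus WT. The shares of all genes quoted beside the lists belong to the fit of all 4 animals and do not apply to those counts.

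Across all 4 animals no gene was called between proximal and distal lung. Of 18872 genes tested with the animal as a block by edgeR's quasi-likelihood test, 0 had an adjusted p of 0.05 or less, and the smallest adjusted p was 0.991. At an unadjusted p below 0.05 there were 342 genes (1.81%), of which 246 were higher and 96 lower in proximal lung. DESeq2 called 2 genes (0.0106%), *MLIP* and *MUC13*, both higher in proximal lung, and limma voom called 0. Without CF animal 1 edgeR called 4, *MLIP*, *NPPA*, *TNNC1* and *ATP1B4*. *NPPA* and *TNNC1* are heart muscle genes, and *MLIP* is a gene of muscle as well. After scaling over all 40 libraries, *NPPA* was at 0 in both regions of both WT animals and at 90.7 CPM in CF animal 2 proximal lung. The pairs differed in how far the regions stood apart. Among the 14047 expressed genes, 141 were at least 2-fold higher and 71 at least 2-fold lower in proximal lung of WT animal 1, and 48 and 35 in WT animal 2. The corresponding numbers were 743 and 1222 in CF animal 1 and 474 and 20 in CF animal 2. With the gene length trend removed they were 395 and 1159 in CF animal 1 and 511 and 12 in CF animal 2. Without that removal, the root mean square of the log2 differences was 0.31 and 0.24 in the WT animals and 0.79 and 0.58 in the CF animals. Between the 2 WT animals it was 0.50 in proximal and 0.39 in distal lung, so in WT the animals stood further apart than the regions.

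**Figure D1:**
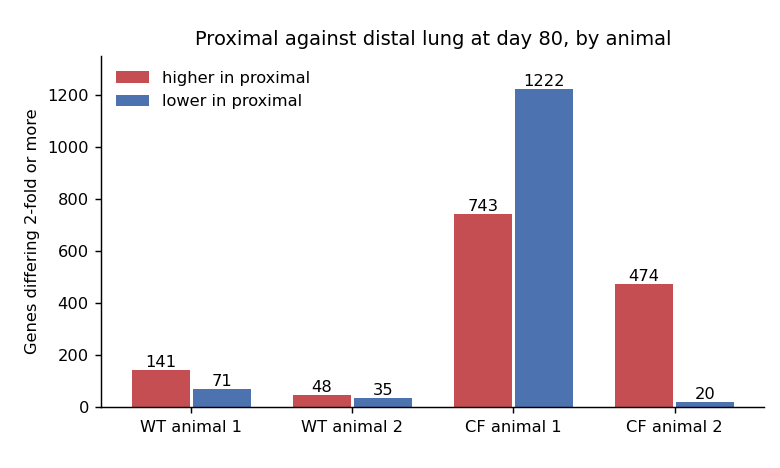
Number of genes (y axis) at least 2-fold higher (red) or lower (blue) in proximal than in distal lung in each of the 4 animals at day 80, among the 14047 expressed genes. The WT animals have 48 to 141 higher genes and the CF animals 474 and 743, and most of the 1222 lower genes of CF animal 1 have no counterpart in CF animal 2, which has 20. With the gene length trend removed (not drawn), the higher genes number 395 in CF animal 1 and 511 in CF animal 2.

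In CF lung many genes of the airway lining had higher values in proximal than in distal tissue. The gene that passed the test was LOC101108654, a protein coding locus without a gene symbol on chromosome 5 (Oar_v4.0 chr5:56832805-56837045, plus strand), between *SPINK5* and *SPINK14*. It was at 48.9 and 58.7 CPM in CF proximal and at 0.909 and 0.687 in CF distal lung, a log2 fold change of 6.08 ± 0.29 (SE) with an adjusted p of 0.0104 by edgeR. It was 1 of 18872 genes called in CF (0.0053%), where 1463 genes (7.75%) had an unadjusted p below 0.05, and DESeq2 called 351 (1.86%), of which 329 (1.74%) were higher in proximal lung. The call was lost without the block (adjusted p = 0.481 by edgeR), in a fit of all 40 libraries (0.445), with the gene length trend removed (0.0579), with limma voom (0.0502) and at the study's limit of 0.001. The count of 1 was 869 without CF animal 1, 7571 without CF animal 2, 348 without WT animal 1 and 333 without WT animal 2, where the spread comes from the animals that remain. In WT the locus was at 1.88 and 44.6 CPM in proximal and 1.33 and 42 in distal lung, low in both regions of animal 1 and high in both regions of animal 2.

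*AGR2* and *TFF3*, genes of secretory cells, followed in the order of p values among the expressed genes in CF, and genes named here and in the next paragraphs that are not region or cell type markers listed in the methods were chosen after their values were seen. *AGR2*, a disulphide isomerase needed for mucin folding, was at 16.6 and 16.4 CPM in CF proximal and 1.6 and 1.45 in CF distal lung. Its log2 fold change was 3.43 ± 0.25 (SE), with an adjusted p of 0.0702 by edgeR and 1.51e-27 by DESeq2. *TFF3*, a peptide secreted with mucus, was at 166 and 84.4 CPM against 25.6 and 18.5 (2.44 ± 0.20). Both proximal libraries were above both distal ones for each gene. The secretoglobin gene *SCGB3A2* was at 10.6 and 147 CPM in CF proximal and 0.532 and 1.15 in CF distal lung (5.76 ± 0.78, adjusted p = 0.0944 by edgeR), and animal 2 had the higher proximal value. *SCGB1A1*, the club cell secretoglobin, was at 0 to 0.547 CPM in the 8 libraries and was not called. Of the 18 measured secretory and gland genes 7 were higher in CF proximal lung at an unadjusted p below 0.05 and 0 lower, against 4.16% higher and 3.59% lower of all genes tested, and their median log2 fold change was 1.45, compared with -0.01 over all genes. The count was 8 higher without CF animal 1, and 6 higher and 1 lower without CF animal 2.

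Basal cell genes had the largest median difference of the airway lists. *KRT5*, the keratin of basal cells, was at 3.91 and 34.3 CPM in CF proximal and 0.133 and 0.119 in CF distal lung (log2 fold change 6.61 ± 0.95). *TP63*, their master transcription factor, was at 3.04 and 19.6 CPM against 0.732 and 0.657 (3.48 ± 0.78). *KRT15*, another keratin of basal cells, was at 13.8 and 81.7 CPM against 0.732 and 0.816 (5.46 ± 0.64). All 3 were higher in animal 2 than in animal 1 in proximal lung and at 0.119 to 0.816 CPM in distal lung. Their adjusted p values by edgeR were 0.0994, 0.287 and 0.0805. Of 13 measured basal cell genes 9 were higher and 1 lower in CF at an unadjusted p below 0.05, against 4.16% and 3.59% of all genes, with a median log2 fold change of 2.77. The count was 9 higher and 0 lower without CF animal 1, and 10 higher and 2 lower without CF animal 2. Of the genes of oesophagus and foregut, tissues that also hold basal cells, 3 of the 5 tested were higher in CF proximal lung at that limit and 0 lower, against the same shares of all genes, their median being 3.36 on the log2 scale, and 4 were higher without CF animal 1 and 1 without CF animal 2. Their summed level was 2.88 and 6.23 CPM in CF proximal and 1.15 and 0.826 in CF distal lung, and at 0.485 to 2.91 CPM in WT. Among single genes looked up for such tissue, *KRT1* and *MUC21* were at 0 in all 8 libraries, and *BARX1* was at 0 to 0.192 CPM. Whether the CF proximal pieces held such tissue was not tested. *KRT13*, a keratin of squamous epithelium that is not on that list, was at 0.901 and 10.005 CPM in CF proximal and 0.0111 and 0.0398 in CF distal lung (7.46 ± 0.64, adjusted p = 0.0702 by edgeR). The part of these genes in the basal cell result was not tested.

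Most motile cilia genes were higher in CF proximal lung. *FOXJ1* was at 73.8 and 45.2 CPM in CF proximal and 19.9 and 21.5 in CF distal lung (1.48 ± 0.24, adjusted p = 0.141 by edgeR and 1.22e-05 by DESeq2). *DNAH5*, an outer dynein arm heavy chain, was at 15.3 and 25.3 CPM against 4.96 and 3.94 (2.15 ± 0.31). *DRC1*, part of the regulatory complex between dynein arms, was at 38.6 and 36.6 CPM against 8.72 and 9.42 (2.05 ± 0.20), and its exons overlap *OTOF* on the opposite strand, whose reads cannot be separated without strand. Of 33 measured cilia genes 28 were higher in CF proximal lung at an unadjusted p below 0.05 and 0 lower, against 4.16% and 3.59% of all genes, and DESeq2 called 23 of them, against 1.86%. At least 2-fold higher in both CF animals were 20 of the 33, against 3.22% of all genes tested. The 5 genes with a larger p were the transcription factor genes *RFX2* and *RFX3*, the regulator *GMNC*, the dynein gene *DNAH11* and *CFAP44*, with log2 fold changes of -0.23 to 0.66. Exons of *DNAH11* share 5740 bases with *CDCA7L* on the opposite strand, so its value is uncertain for the same reason as that of *DRC1*. The median log2 difference of the 33 genes was 1.5 in both CF animals.

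Some markers of mesothelium and of nerve cells also had higher values in CF proximal lung. Of 13 mesothelium genes 6 were higher in CF at an unadjusted p below 0.05 and 0 lower, against 4.16% and 3.59% of all genes, and DESeq2 called 4, against 1.86%. The median of their log2 fold changes was 0.99. Their summed level was 429 and 271 CPM in CF proximal and 225 and 170 in CF distal lung, and 237 to 291 CPM in WT. The count was 10 without CF animal 1 and 5 without CF animal 2. Of 18 genes of lung neurons and Schwann cells 5 were higher and 0 lower, against the same 4.16% and 3.59%, with a median of 1.47. The median log2 difference was 0.45 in CF animal 1, or 0.22 with the gene length trend removed, and 2.04 in CF animal 2, the animal with heart muscle genes in its proximal library. Their summed level was 162 and 174 CPM in CF proximal and 174 and 144 in CF distal lung, so that in animal 1 the sum was lower in proximal lung. That count was 10 without CF animal 1, and 1 higher and 1 lower without CF animal 2. The part of these cells in the differences of the airway genes was not tested.

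**Figure D2:**
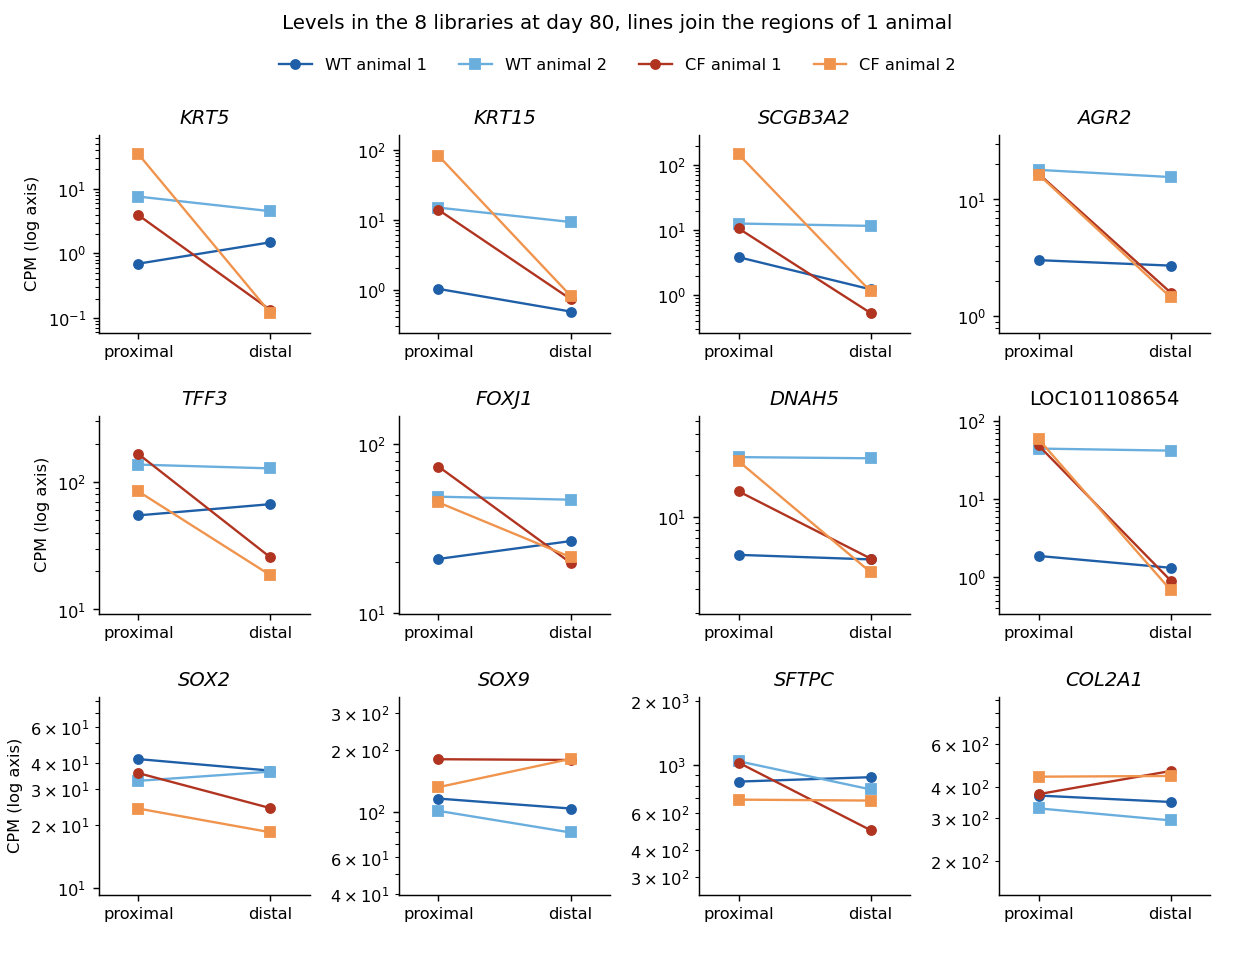
CPM (log axis) of 12 genes in proximal and distal lung of the 4 animals at day 80, with a line joining the regions of 1 animal. *KRT5*, *KRT15*, *SCGB3A2*, *AGR2*, *TFF3*, *FOXJ1*, *DNAH5* and LOC101108654 descend steeply from proximal to distal lung in CF, and have shallower slopes of either sign in WT, where animal 2 is above animal 1 in both regions. *SOX2*, *SOX9*, *SFTPC* and *COL2A1* show no common slope.

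In WT the motile cilia genes stood further apart between the animals than between the regions. The 33 motile cilia genes summed to 323 CPM in WT proximal and 382 in WT distal lung of animal 1, and to 650 and 634 CPM in animal 2. The CF sums were 661 and 622 CPM in proximal and 311 and 301 in distal lung. WT animal 2 was thus at the level of CF proximal lung in both regions, and WT animal 1 near the level of CF distal lung in both. In both regions 31 of the 33 genes were higher in WT animal 2 than in animal 1, by a median log2 difference of 1.28 in proximal and 0.86 in distal lung. This held for 11 of 13 basal cell genes, and for 10 of 18 secretory and gland genes, of which 3 were lower in both regions and whose median difference was 1.29 in proximal and 0.20 in distal lung. The basal cell list yet summed to 399 and 386 CPM in proximal and distal lung of WT animal 1 and to less, 387 and 372, in animal 2. Its CF sums were 492 and 533 CPM in proximal and 454 and 381 in distal lung. *FOXJ1* was at 20.9 and 26.7 CPM in the proximal and distal lung of WT animal 1 and at 48.9 and 46.9 in those of animal 2. *KRT5* was at 0.695 and 1.49 CPM in animal 1 and 7.57 and 4.50 in animal 2. The medians of the WT log2 fold changes were -0.14 for motile cilia, -0.02 for basal cell and 0.06 for secretory and gland genes, and 0, 0 and 1 of their members were higher in WT at an unadjusted p below 0.05, where 0.403% of all genes were. In WT 0 genes were called by edgeR and 146 (0.774%) had an unadjusted p below 0.05, 76 of them higher and 70 lower (0.371%), with 1 call, *MLIP*, by DESeq2. Without CF animal 1 or 2, whose spread enters the same fit, 11 and 12 genes were called in WT, among them in both fits *ANGPTL1*, lower in proximal lung, and *MATN4* and the phosphate transporter gene *SLC34A2*, higher. *SLC34A2* was at 265 and 355 CPM in WT proximal and 206 and 207 in WT distal lung.

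Genes beyond these lists showed that split too. Among the 14047 expressed genes 255 (1.82%) were at least 2-fold higher in proximal lung in both CF animals, and 29 of these belong to the airway lists. The median log2 difference of the 255 was -0.38 in WT animal 1 and 0.07 in WT animal 2, and 1 of them was at least 2-fold higher in both WT animals, as were 5 (0.0356%) of the 14047 expressed genes. Over all 18872 genes tested, those with low counts included, 0.996% were 2-fold higher and 1.11% 2-fold lower in both WT animals. Of the 255, 238 (93.3%) were higher in WT animal 2 than in WT animal 1 in both regions, compared with 30% of all 14047 genes.

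**Figure D3:**
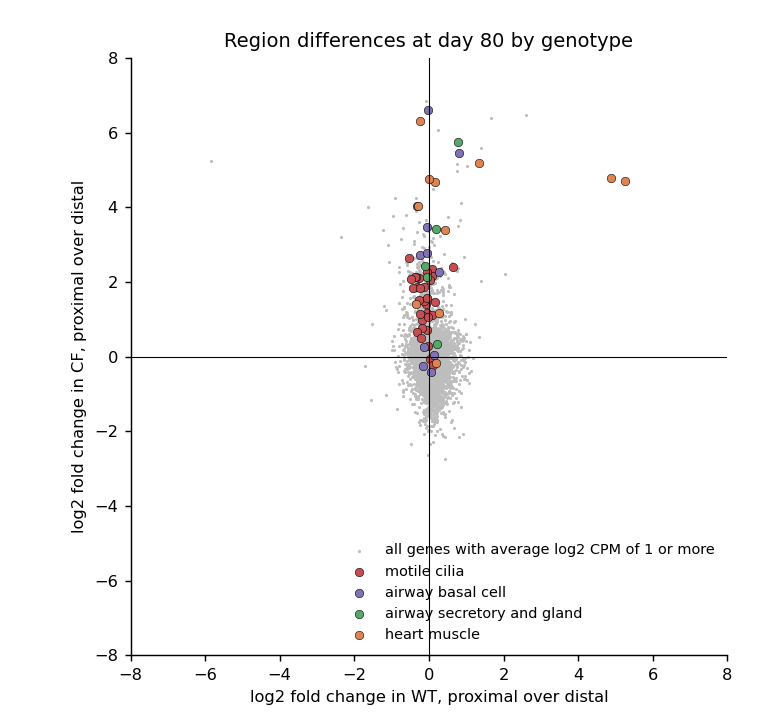
log2 fold change of proximal over distal lung in WT (x axis) and CF (y axis) at day 80 for the expressed genes (grey), with motile cilia (red), basal cell (purple), secretory and gland (green) and heart muscle genes (orange). The airway genes lie mostly near 0 on the WT axis and mostly between 1 and 7 on the CF axis, and most heart muscle genes are high on the CF axis, with 2 of them high on the WT axis as well.

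The difference between the genotypes was tested as an interaction. Of 18872 genes 0 were called by edgeR, with a smallest adjusted p of 0.0588 for LOC101108654, and 772 (4.09%) had an unadjusted p below 0.05, 227 of them (1.2%) with the smaller value in CF. DESeq2 called 171 (0.906%), all with the larger log2 fold change in CF. The count of 0 by edgeR was 588 without CF animal 1, 6537 without CF animal 2, 31 without WT animal 1 and 57 without WT animal 2. For LOC101108654 the log2 fold change was larger in CF by 5.82 ± 0.36 (SE), and for *AGR2* by 3.25 ± 0.34, *TFF3* by 2.54 ± 0.27 and *SEC14L3*, a lipid-binding protein, by 3.04 ± 0.34, with an adjusted p of 0.299 each by edgeR. An unadjusted p below 0.05 with the larger value in CF was seen in 26 of 33 motile cilia, 7 of 13 basal cell and 7 of 18 secretory and gland genes, against 2.89% of all genes. Without the block these counts were 18, 6 and 7. With DESeq2 16 motile cilia genes were called in the difference. The difference rests on 2 animals of each genotype, and in the motile cilia genes the median log2 difference between the WT animals was 1.28 in proximal lung, beside 1.5 between the regions of each CF animal. The 2 animal labels of each genotype share a stem, and the sources used here do not say whether they had 1 ewe.

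Of *SOX2*, *SOX9*, *ID2*, *SFTPC* and *SFTPB*, the markers of region, none was called by edgeR or DESeq2. *SOX2* was at 41.8 and 32.8 CPM in WT proximal and 36.8 and 36.4 in WT distal lung, and at 35.8 and 24.1 in CF proximal and 24.2 and 18.5 in CF distal lung. Its log2 fold change was 0.02 ± 0.18 in WT and 0.47 ± 0.18 in CF, and the ranges of the regions overlapped over the 4 animals. *SOX9* was at 116 and 101 CPM in WT proximal and 104 and 79.3 in WT distal lung, and at 179 and 131 against 178 and 180 in CF (0.25 ± 0.17 in WT and -0.22 ± 0.17 in CF). *ID2*, another tip factor, was at 97.2 to 190 CPM with a log2 fold change over all animals of 0.03 ± 0.18. The surfactant protein gene *SFTPC* was at 837 and 1041 CPM in WT proximal and 877 and 769 in WT distal lung, and at 1026 and 689 against 496 and 682 in CF (0.36 ± 0.21 over all animals). *SFTPB* was higher in proximal lung of all 4 animals, at 282, 224, 238 and 212 CPM against 273, 125, 171 and 183 (0.39 ± 0.15, adjusted p = 0.991 by edgeR). At an unadjusted p below 0.05 over all animals 0 of the 23 tip progenitor genes differed in either direction, and 4 were lower in CF, where 3.59% of all genes were. The CF count was 13 lower without CF animal 1, and 5 higher and 7 lower without CF animal 2. Of 22 surfactant and alveolar type 2 genes 4 were higher and 0 lower over all animals, against 1.3% higher and 0.509% lower of all genes, and the count was 4 without CF animal 1 and 2 without CF animal 2.

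Of the mesenchymal signals edgeR called none. In CF DESeq2 called 2 of 24 lung mesenchyme factors, 1 of 21 FGF, 1 of 41 WNT and 2 of 33 BMP and TGF-beta signalling genes, against 1.86% of all genes, but none of the 6 signals and factors given next. *FGF10* was at 71.9 and 60.4 CPM in WT proximal and 67.9 and 64.5 in WT distal lung, and at 36.5 and 55 against 77.3 and 59.0 in CF (-0.01 ± 0.24 in WT and -0.59 ± 0.25 in CF). *TBX4* and *TBX5*, mesenchymal factors upstream of FGF10, had log2 fold changes of -0.46 ± 0.16 and -0.32 ± 0.14 in CF and 0.12 ± 0.16 and 0.07 ± 0.14 in WT. *WNT2* was at -0.25 ± 0.12 over all animals, *BMP4* at -0.01 ± 0.11 and the epithelial ligand *SHH* at -0.29 ± 0.31, each with an adjusted p of 0.991 or more by edgeR. The smooth muscle genes *MYH11* and *ACTA2* had log2 fold changes of -0.03 ± 0.13 and 0.04 ± 0.12 over all animals. Of cartilage genes *COL2A1* was at 293 to 465 CPM in the 8 libraries (-0.02 ± 0.13), and *ACAN*, which encodes aggrecan, was at 10.3 and 28.4 CPM in CF proximal against 3.40 and 3.13 in CF distal lung (2.39 ± 0.45, adjusted p = 0.171 by edgeR and 3.66e-06 by DESeq2) and at 4.58 and 9.20 against 5.63 and 6.60 in WT.

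**Figure D4:**
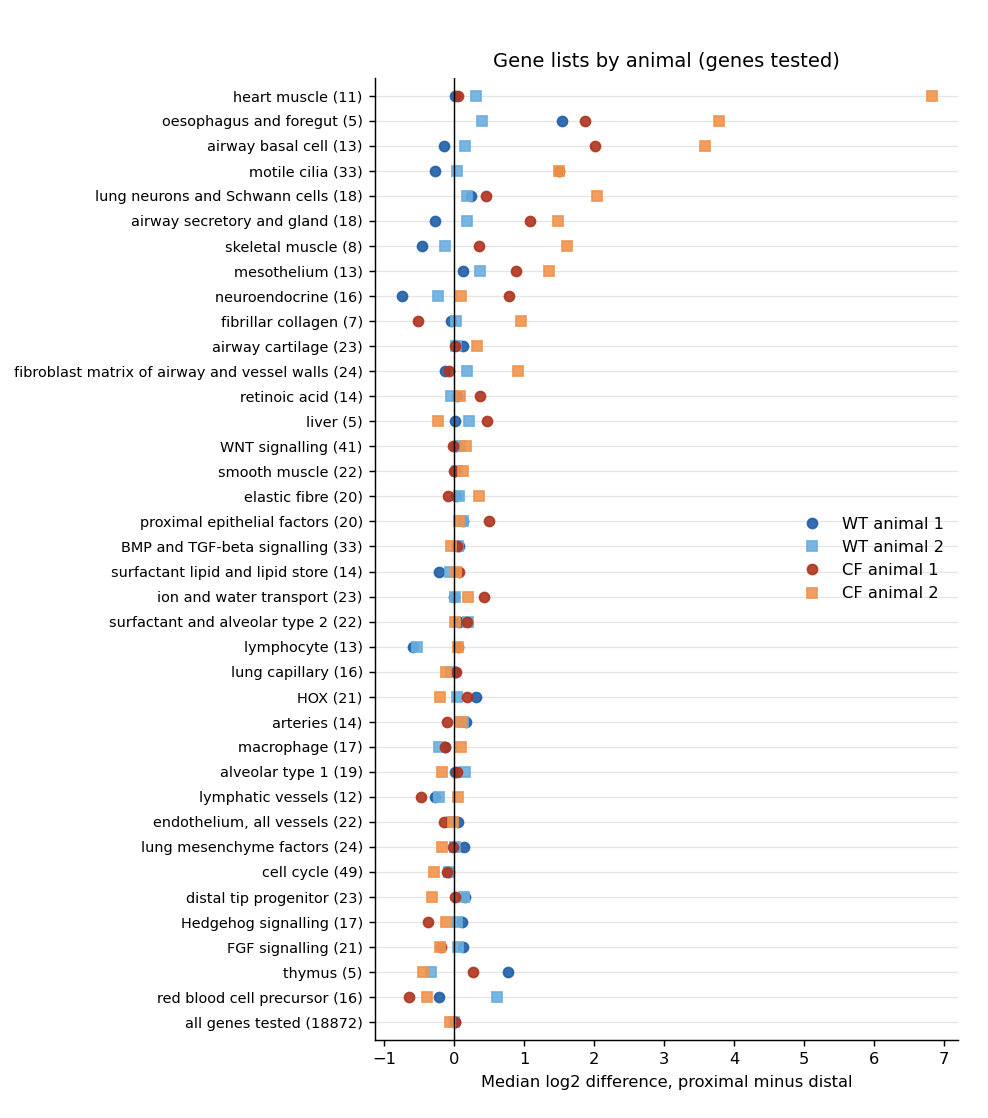
Median log2 difference of proximal minus distal lung (x axis) of the gene lists and of all genes tested (bottom row) in the 4 animals at day 80, with the number of genes tested in brackets. Basal cell, motile cilia and secretory lists are above 1 in both CF animals and between -0.27 and 0.18 in both WT animals. With the gene length trend removed (not drawn), the secretory list of CF animal 1 is at 0.88. The heart muscle list is at 6.82 in CF animal 2 and between 0.01 and 0.31 in the other 3.

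Some genes pointed the same way in all 4 animals. Proximal lung was higher in all 4 animals for 819 genes (4.34%) and lower for 1075 (5.7%). All 4 proximal libraries were above all 4 distal ones for 67 genes (0.355%) and below them for 102 (0.54%). *MLIP*, a lamin-interacting protein of muscle on chromosome 20 (chr20:6287937-6452815, minus strand), was at 1.35 and 1.47 CPM in WT proximal and at 0 in both WT distal libraries, and at 0.891 and 6.59 against 0.0444 and 0.0597 in CF. Taking 3 counts per library as the floor, WT proximal lung was 13.9-fold and 20.5-fold above it in animals 1 and 2. If each mate of a read pair was counted, 3 counts stand for fewer than 3 fragments, so these folds are not firm lower bounds. Over all animals its log2 fold change was 6.14 ± 0.70, with an adjusted p of 0.991 by edgeR and 1.53e-09 by DESeq2. *MUC13*, a membrane mucin, was at 0.245 and 5.68 CPM in WT proximal against 0 and 1.15 in WT distal lung, and at 6.16 and 8.46 against 0.0887 and 0.0697 in CF (DESeq2 adjusted p = 5.59e-08). *MATN4*, a matrilin of the extracellular matrix, was at 39.99, 23.6, 54.5 and 41 CPM in proximal against 23.9, 13.4, 25 and 32.6 in distal lung (0.75 ± 0.15), and *FGF7*, a growth factor of mesenchyme, differed by 0.90 ± 0.23. For *MATN4* the values of the animals overlapped between regions although each pair pointed the same way.

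Genes with lower values in proximal lung of all 4 animals included *HOXA7*, *HOXA9* and some lymphatic genes, none called over all animals by edgeR or DESeq2. In CF alone DESeq2 called *HOXA7* (adjusted p = 9.72e-08) and *HOXA9* (0.00884). *HOXA7*, a patterning gene on chromosome 4 (chr4:68845166-68861962, plus strand), was at 33.1 and 18.9 CPM in WT proximal and 39.8 and 30.9 in WT distal lung, and at 8.47 and 21.7 against 75.4 and 62.4 in CF (-1.39 ± 0.45 over all animals). Its exons share 170 bases with *HOXA3* on the same strand. *HOXA9* was at 0.981 and 0.447 CPM in WT proximal against 1.55 and 0.718 in WT distal lung, and at 0.192 and 1.01 against 4.89 and 2.76 in CF (-1.79 ± 0.72). Of 21 HOX genes 3 were lower at an unadjusted p below 0.05 and 0 higher over all animals, against 0.509% lower of all genes, and the count was 3 without CF animal 1 and 1 without CF animal 2. Among 12 lymphatic genes 3 were lower and 0 higher at an unadjusted p below 0.05, against 0.509% and 1.3% of all genes, namely *FLT4*, the receptor of lymphatic growth factors, *NRP2*, its co-receptor, and the scavenger receptor gene *STAB2*. Of the 12, 4 were lower and 2 higher in all 4 animals, against 5.7% and 4.34% of all genes. The count of 3 was 0 without the block, 4 without CF animal 1 and 3 without CF animal 2. *FLT4* was at 28.9, 45.9, 28.7 and 41.6 CPM in proximal against 36.6, 52.3, 39.9 and 51.8 in distal lung, lower in each animal by a log2 difference of 0.33 ± 0.10 on average, and the regions' ranges overlapped. Cell cycle genes were lower in all 4 animals for 19 of 49, against 5.7% of all genes, yet by a median log2 fold change of only -0.14 and with 0 of 49 at an unadjusted p below 0.05 by edgeR. That count was 10 with a trend on gene length removed and 11 without CF animal 1, all lower, and 0 without CF animal 2.

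The other 16 pairs of the series, at 65, 100 and 120 days and at term, gave further values for these genes. The 12 higher and 12 lower expressed genes with the smallest p at day 80 were taken, and *MLIP*, *HOXA7*, *HOXA9* and *HOXB9* were added after their day 80 values were seen. Earlier results of the series were known when the 4 were added, so their test at other ages was not blind. The log2 differences of these 28 genes were tested by an exact sign-flip permutation test over 15 animals, with the WT day 100 pairs of 1 animal label averaged, and adjusted over the 28. A label found on both a WT day 65 and a CF day 100 pair was taken as 2 animals, since genotype and age differ. *MLIP* was higher in proximal lung in 16 of 16 pairs, by 3.19 ± 1.67 (mean and SD over 15 animals) and with a range of 0.15 to 5.27. In distal lung it was at 0 in both WT animals at day 65, both CF animals at day 100 and WT animal 1 at day 120. The sizes of those differences, the 5.27 among them, depend on the prior count. For *MLIP*, levels are therefore given too. Its highest levels, 14.5 and 6.25 CPM after scaling over all 40 libraries, were in the proximal libraries of CF animal 1 at day 65 and CF animal 2 at day 80. Those 2 libraries also held heart muscle genes at a summed 1844 and 979 CPM, compared with 18 to 77.3 CPM in the other libraries. In the other proximal libraries *MLIP* was at 0.137 to 2.90 CPM. *HOXA7* was lower in 16 of 16, by a mean of -1.74 ± 1.19. Both had the smallest p that the permutations can give (6.1e-05, adjusted p = 0.000854). *NLGN4X* and *A2M* were lower in 15 of 16 pairs (adjusted exact p = 0.00285 and 0.00427), as was *HOXA9* (0.0253), and *MREG* in 12 of 16 (0.0447). In all 6 of 28 genes passed in the day 80 direction and 0 in the opposite one, and 3 of the 6, *MLIP*, *HOXA7* and *HOXA9*, were among the 4 added. *HOXB9*, the other one added, was lower in 12 of 16 pairs and did not pass (adjusted exact p = 0.119). *MUC13*, *MATN4*, *LAMB3*, *FGF7*, *FLT4* and *NRP2* did not pass, with adjusted exact p values of 0.224 to 0.980, and *FLT4* and *NRP2* were higher in 10 and 12 of the 16 other pairs. Over all 20779 genes of the 40 libraries, 6 had the same sign in all 16 other pairs. Of these *MLIP* was higher in all 4 day 80 animals, and *AGTR1*, *HOXA7* and *KCNS3* were lower.

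The airway lists did not keep a direction over the ages. After scaling over all 40 libraries, the median log2 difference of the motile cilia genes was 0.73 and 1.32 in the CF animals at day 65, 1.56 and 1.51 at day 80, -0.37 and 0.24 at day 100 and -0.54 and 1.71 at day 120. In WT it was -1.13 and -0.31 at day 65, -0.28 and 0.04 at day 80, 0.62 and -0.20 at day 100 and 1.33 and -0.98 at day 120. At the other ages the 2 animals of 1 group had opposite signs in WT at days 100 and 120 and in CF at days 100, 120 and 147. Tested within animals, the region difference at day 80 differed from that at day 65 in 0 of 20779 genes by edgeR (1043 or 5.02% at an unadjusted p below 0.05, with 2.68% higher and 2.34% lower at day 80, and by DESeq2 the macrophage gene *MSR1* and *CHI3L1*) and from that at day 100 in 0 (317 or 1.53%, with 1.05% higher and 0.476% lower at day 80, and 0 by DESeq2).

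**Figure D5:**
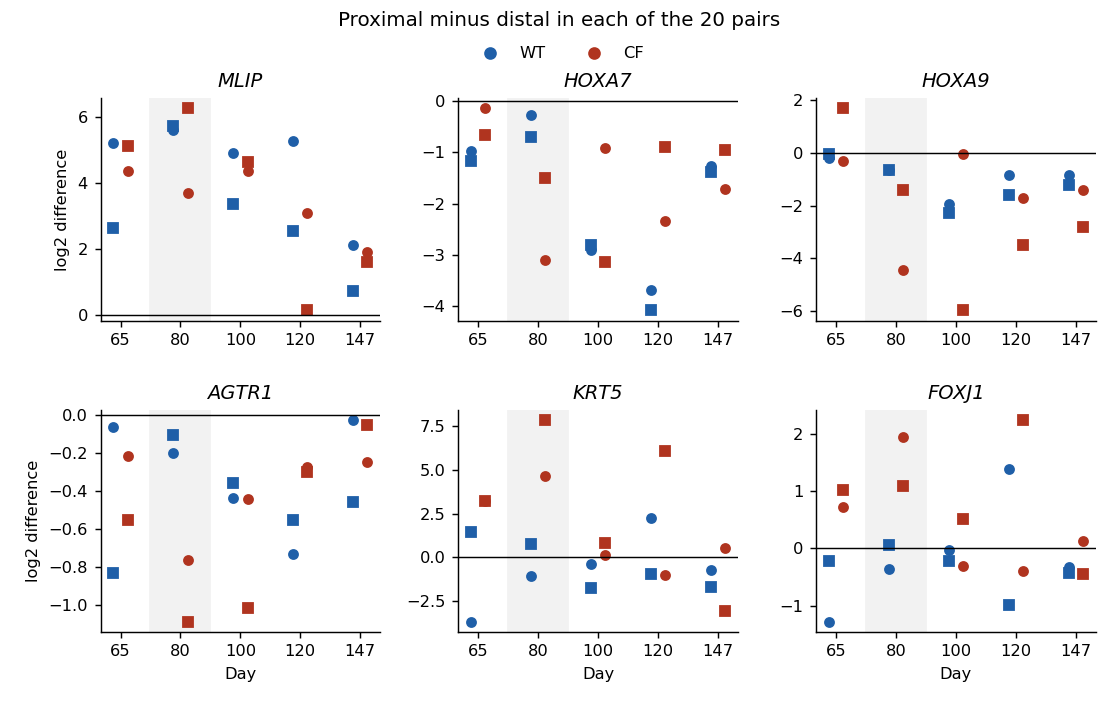
log2 difference of proximal minus distal lung (y axis) in each of the 20 pairs by gestational day (x axis, 147 is term), for WT (blue) and CF (red), with circles for replicate 1, squares for replicate 2 and day 80 shaded. *MLIP* is above 0 and *HOXA7* and *AGTR1* below 0 in all 20 pairs, *HOXA9* is above 0 in 1 pair, and *KRT5* and *FOXJ1* lie on both sides of 0.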

How the data were processed

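Bulk RNA from proximal and distal lung was sequenced as 100 bp paired reads. The authors aligned reads to Oar_v4.0 with STAR (2.6 in the submitters' processing notes, a later release in the paper), counted them per gene with featureCounts 1.6.3, and deposited raw counts of 24478 genes without normalization. Annotation release, strand setting and treatment of mates are not given in the sources used here. Of the counts from 1 to 20, 75.5% to 82.1% per library were even numbers, the pattern that counting each mate gives. An unused table repeats the CF counts.

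Fits used edgeR 4.0.16, DESeq2 1.42.0 and limma 3.58.1 under R 4.3.3. Genes passed filterByExpr (count minimum 10, total minimum 15) and were scaled by TMM. Region was tested with the animal as a block by the quasi-likelihood F test of edgeR, for all 4 animals, for each genotype and for CF minus WT, and in 40 libraries for day 80 against days 65 and 100, with Benjamini-Hochberg adjustment and a threshold of 0.05. Same-numbered libraries share an animal label, and their deviations correlated at 0.66 in WT and -0.28 in CF. Differences of single pairs and lists are log2 CPM with a prior count of 2. LOC identifiers were matched to RefSeq symbols (ARS-UI_Ramb_v3.0, names only; 501 of 8432 named). The 28 genes tested at other ages comprised those with the smallest unadjusted p at day 80 among expressed genes (average log2 CPM at least 1), and *MLIP*, *HOXA7*, *HOXA9* and *HOXB9* were added.

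The markers named by rule are *SOX2*, *SOX9*, *ID2*, *SFTPC*, *SFTPB*, *FOXJ1*, *TP63*, *KRT5*, *SCGB1A1*, *SCGB3A2*, *COL2A1*, *ACAN*, *MYH11*, *ACTA2*, *FGF10*, *WNT2*, *TBX4*, *TBX5*, *SHH*, *BMP4* and *CFTR*, besides called genes. Members, genes and the 37 lists were chosen with earlier results of these data known. Fits were checked on simulated counts. Alternatives were the study's limits, no block, RLE, DESeq2, voom, bias-adjusted quasi-likelihood, no filter, glmTreat, equal depth, other sets of libraries and each animal left out, and, after seeing the data, the 40-library fit within genotype and removal of a lowess trend on gene length. With 2 animals a group, p values measure only the spread between these few animals.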

Additional observations from a re-analysis of the deposited data

Results flagged for a closer look

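In 7 lists and in 1 marker gene the WT animals pointed one way and both CF animals the other. The difference of the genotypes' means was not tested for the lists, whose direction rests on 2 animals each. The largest was that of the skeletal muscle genes (1.28, CF minus WT mean of the animals' log2 differences), whose CF animal 2 was at 1.6. Neuroendocrine genes differed by 0.928, at -0.75 and -0.24 in WT and 0.78 and 0.09 in CF. Lymphocyte genes differed by 0.612, surfactant lipid genes by 0.188, Hedgehog genes by -0.320, FGF genes by -0.286 and lung mesenchyme factors by -0.169. *COL2A1* differed by -0.285, at 0.09 and 0.16 in WT and -0.31 and -0.01 in CF, and its interaction had an adjusted p of 0.805 by edgeR.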

How the results depend on the processing

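Counts of genes called at an adjusted p of 0.05 or less differed between alternatives. For all 4 animals (0) DESeq2 gave 2 and the 40-library fit 1, *MLIP*. For WT (0) DESeq2 gave 1 and the 4 WT libraries alone 44. For CF (1) the study's limits, no block, voom and removal of the gene length trend gave 0, the bias-adjusted quasi-likelihood 4, the 40-library fit 4 (without LOC101108654, adjusted p = 0.445 by edgeR), no filter 61, the 4 CF libraries alone 182 and DESeq2 351. For CF minus WT (0) no filter gave 1 and DESeq2 171. For day 80 minus day 65 (0) DESeq2 gave 2. Leaving out 1 animal gave 0 to 4 genes for all 4 animals, 0 to 12 for WT, 333 to 7571 for CF and 31 to 6537 for CF minus WT, and 0 to 0 for both comparisons with other ages. The cause was not tested, except that a lone animal is assumed to vary like the others.

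The replicate number pairs the regions of 1 animal. Without the block 0 genes were called in all 6 comparisons, and LOC101108654 in CF had an adjusted p of 0.481 by edgeR, with a log2 fold change of 6.07. The block changed no other call. Its log2 fold change in CF was 5.74 with the gene length trend removed (adjusted p = 0.0579 by edgeR). For single genes 2550 values moved by less than 1 SE or kept their call, 288 passed the threshold only under the alternative, 128 moved further and 5 lost their call. With 25301277 counts in the shallowest library, differences of genes at a few counts were not detectable.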
